A study of Homo sapiens with 6 samples.

Results

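The plasminogen activator genes and the clade B serpins were compared between gefitinib-resistant and gefitinib-sensitive lung cancer cells. The members were the genes PLAU, PLAUR, PLAT, SERPINE2, SERPINB1, SERPINB2, SERPINB5, SERPINB7, SERPINB8 and SERPINB9, each read from every probe set that the array annotation gives to that gene alone. A probe set is a group of short probes that together report 1 transcript. This gave 20 of the 54613 probe sets and 9 of the 19775 genes with a probe set of their own. SERPINB2 had none and was not analysed here. PC9/gef cells came from PC9, a human lung adenocarcinoma cell line that responds to the EGFR kinase inhibitor gefitinib, by continuous culture in rising concentrations of the drug. RNA of 3 PC9/gef and 3 PC9 samples, called biological replicates in the sample labels, was hybridized to Affymetrix arrays, 1 array per sample. Whether gefitinib was in the medium at harvest is not given in the sources used here.
Urokinase (PLAU) and tissue plasminogen activator (PLAT) are secreted proteases that cut plasminogen to plasmin, which dissolves fibrin and helps cells to degrade matrix. PLAUR encodes the receptor that holds urokinase at the cell surface. Serpins trap such proteases with an exposed loop. SERPINE2, known as protease nexin, is secreted and blocks thrombin, urokinase and tissue plasminogen activator, whereas clade B serpins lack a classical signal peptide and act largely inside cells. Many of them are known from squamous and other epithelia.
The values are on the log2 scale, so a difference of 1 is a 2-fold change. Background level was 2.65, below which 95% of 135 olfactory receptor probe sets had their mean. All 9 measured epithelial markers lay above it, including EPCAM (14.45 in PC9/gef and 14.46 in PC9), whereas 4 of 5 lung lineage markers, among them NKX2-1, were at background level in both lines. So were 9 of 11 leukocyte, 7 of 9 fibroblast and 5 of 7 endothelial markers, with PTPRC, DCN and VWF among them. Of the epithelial markers 2 were higher and 4 were lower in PC9/gef, where 23.8% of all genes above background level were higher and 22.2% were lower (limma, adjusted p under 0.05). Among the other lists, PECAM1 (log2 change -2.40) and LYZ (-1.09) were lower and COL1A1 (0.52) was higher, and their part in the results was not tested. These marker genes were named after their values were seen.
The sequences before the start sites are described first, since 4 members (SERPINB5, SERPINB7, SERPINB2 and SERPINB8) lie in 1 gene cluster on chromosome 18. They were searched with earlier results of these data known. RefSeq start sites on GRCh38.p14 were matched for 9 members, with 13 starts in all, and PLAT had no entry. The 250 bases before each start were searched on both strands for the letters TGANTCA, which the transcription factor AP-1 can bind. They were found before 6 of the 13 member starts and before 6.57% of all 35116 starts. The genes with a match were PLAUR and the 4 members on chromosome 18. A match is a description of letters and does not show binding. The 250 bases with matches before the starts of the 4 measured genes follow, 5′ to 3′ with the matched letters in capitals, because these genes moved in both directions.
PLAUR (chr19:43670170-43670419, minus strand): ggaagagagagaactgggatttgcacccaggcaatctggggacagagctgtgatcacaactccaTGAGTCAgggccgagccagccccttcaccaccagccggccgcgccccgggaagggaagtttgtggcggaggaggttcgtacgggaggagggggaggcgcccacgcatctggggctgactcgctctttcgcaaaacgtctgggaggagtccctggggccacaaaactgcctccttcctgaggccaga
SERPINB5 (chr18:63476708-63476957, plus strand): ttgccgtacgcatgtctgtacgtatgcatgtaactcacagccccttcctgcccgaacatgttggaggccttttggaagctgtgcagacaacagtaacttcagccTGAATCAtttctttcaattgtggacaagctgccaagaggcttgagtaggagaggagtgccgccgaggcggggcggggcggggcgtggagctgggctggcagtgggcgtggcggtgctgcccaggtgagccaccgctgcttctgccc
SERPINB7, the second start (chr18:63775168-63775417, plus strand): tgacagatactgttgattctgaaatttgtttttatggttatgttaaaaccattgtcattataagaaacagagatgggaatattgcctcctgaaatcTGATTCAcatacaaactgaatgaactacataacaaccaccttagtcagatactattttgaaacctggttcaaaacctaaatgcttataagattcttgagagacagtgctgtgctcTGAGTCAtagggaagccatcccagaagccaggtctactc
SERPINB7, the third start (chr18:63777531-63777780, plus strand): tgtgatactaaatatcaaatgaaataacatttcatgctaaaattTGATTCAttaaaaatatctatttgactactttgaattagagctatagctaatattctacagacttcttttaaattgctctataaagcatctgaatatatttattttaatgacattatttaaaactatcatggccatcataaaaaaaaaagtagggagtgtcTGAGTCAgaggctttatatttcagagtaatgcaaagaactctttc
SERPINB8 (chr18:63969831-63970080, plus strand): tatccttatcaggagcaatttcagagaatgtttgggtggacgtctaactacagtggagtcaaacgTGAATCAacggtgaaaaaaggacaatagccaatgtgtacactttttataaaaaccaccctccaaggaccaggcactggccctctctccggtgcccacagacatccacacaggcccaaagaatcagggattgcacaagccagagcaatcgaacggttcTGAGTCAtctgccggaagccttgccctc
Counted from the start, the capitals lie at -186 to -180 in PLAUR and at -146 to -140 in SERPINB5. SERPINB8 had matches at -185 to -179 and -28 to -22. SERPINB7 had matches at -154 to -148 and -39 to -33 before the second start, at -206 to -200 and -45 to -39 before the third, and none before the first. No match overlapped a match of the other letters searched. These were GGGCGG, which Sp1 can bind, before 6 member starts against 42.6% of all starts, TATAAA, the TATA box, before 4 against 10.7%, CACCTG, an E-box, before 2 against 17.5%, and AGGAAG, which PEA3 can bind, before 5 against 28.7%. GGGCGG was found before starts of PLAU, SERPINE2, SERPINB1, SERPINB9 and SERPINB5.

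**Figure D1:**
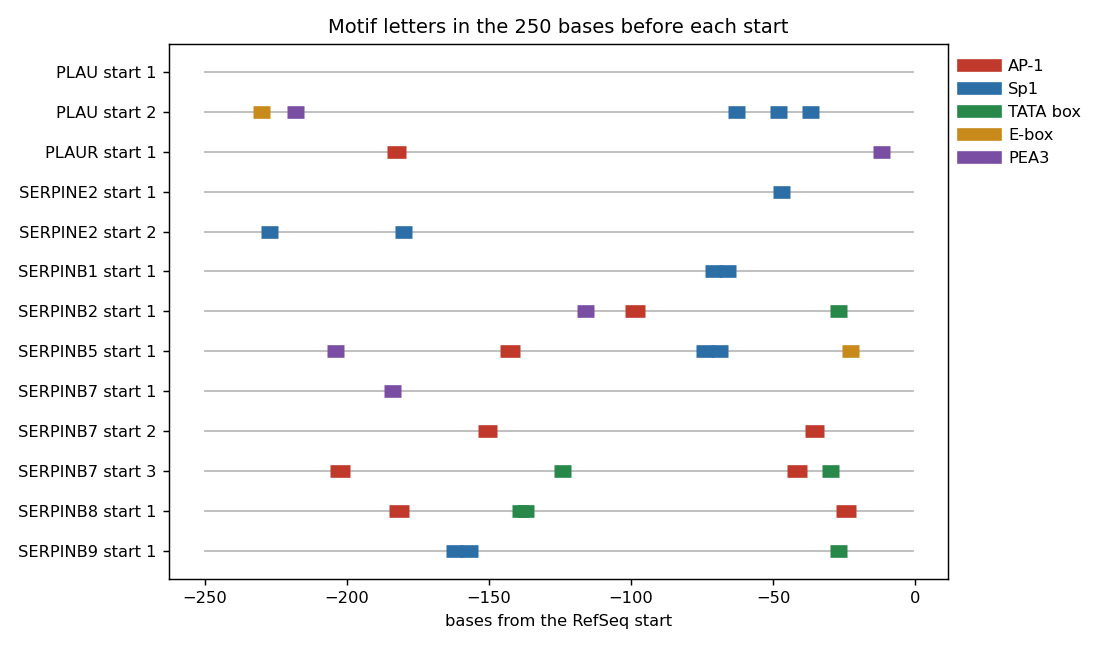
Motif letters in the 250 bases before each of 13 RefSeq starts of 9 member genes, with the distance from the start in bases on the horizontal axis and 1 row per start. AP-1 letters stand before starts of PLAUR, SERPINB2, SERPINB5, SERPINB7 and SERPINB8.

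Among the members, both genes of the urokinase pair, PLAU and PLAUR, were higher in PC9/gef, PLAUR on all but its dimmest probe set. PLAT and SERPINB7 were the only members over 2-fold different, and both were lower. SERPINE2, SERPINB5 and SERPINB8 were slightly higher, the last with an adjusted p of only 0.0492 from limma over genes. SERPINB1 did not pass the test, and SERPINB9 lay at background level. At an adjusted p under 0.05 over all genes (limma), 5 of the 9 member genes were higher and 2 were lower, where 14.4% of all 19775 genes were higher and 17.1% were lower. The 8 members above background level lay above it in both lines. Of the 11955 genes above it in 1 or both lines, 23.8% were higher and 22.2% were lower. No member was over 2-fold higher (1.54% of all genes), and 2 were over 2-fold lower (1.34% of all genes), while 4.77% of the genes above background level were over 2-fold different in either direction. Over the 20 probe sets, 6 were higher and 2 were lower, against 7.61% and 8.99% of all probe sets and 16.4% and 16.5% of those above background level. Of 13 member probe sets above background level, the arrays of the lines did not overlap in 9, where 60.3% of all probe sets above background level were apart in this way. The median log2 change was 0.18 over the 9 members and -0.00065 over all genes. Among genes above background level the medians were 0.19 for the members and -0.0098 for all genes.

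**Figure D2:**
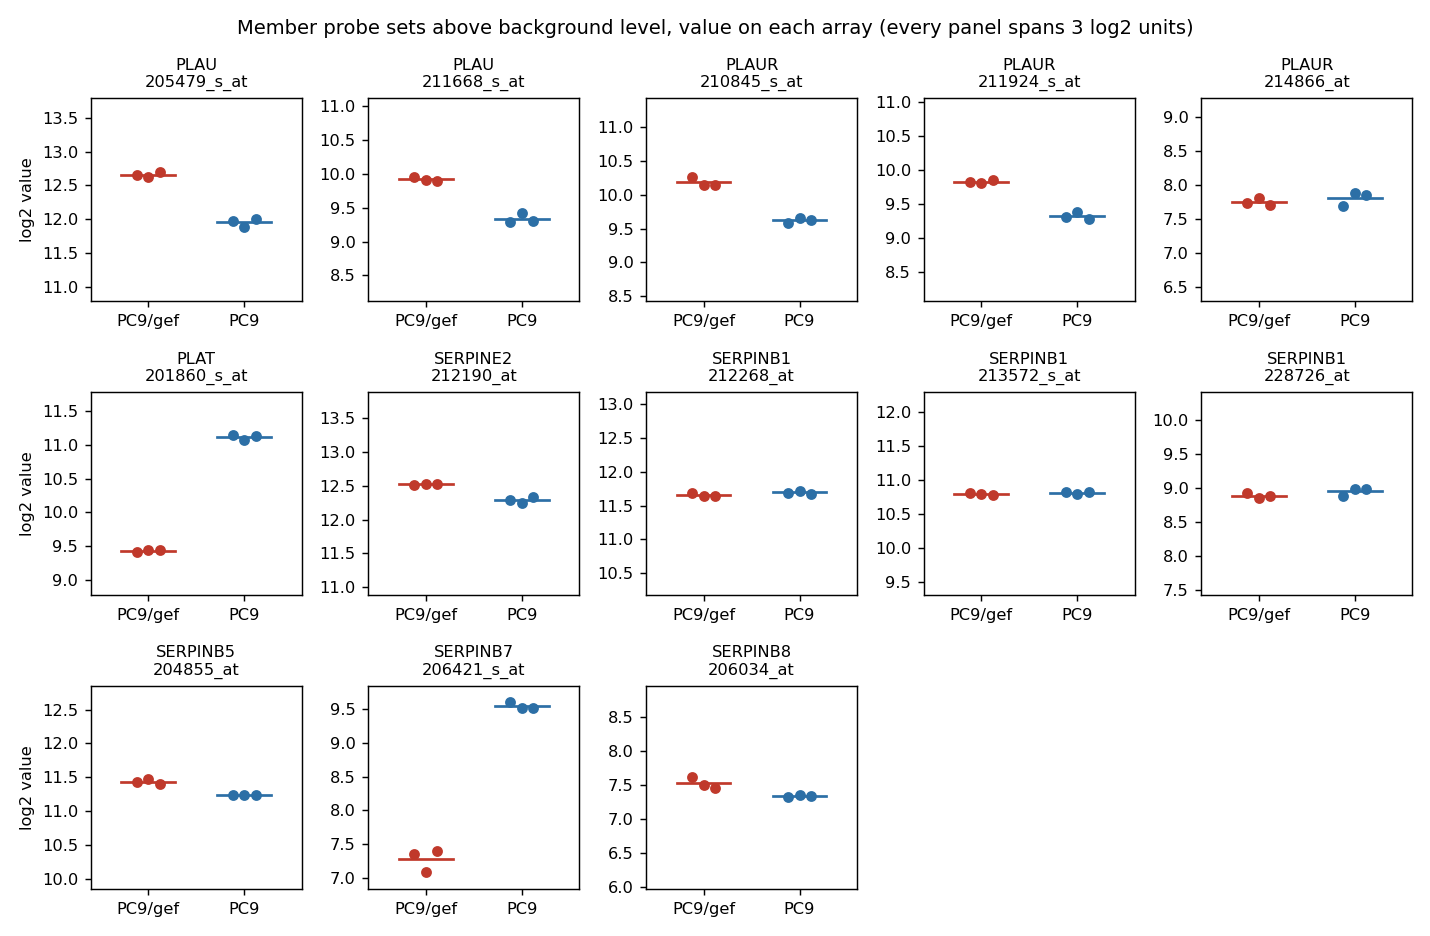
Log2 value of the 13 member probe sets above background level on each of 6 arrays, with points for arrays, bars for the mean of 3 arrays and panels that each span the same log2 range. PLAT and SERPINB7 are far lower on all PC9/gef arrays than on any PC9 array, while the points of SERPINB1 overlap.

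PLAU, the urokinase gene, was higher in PC9/gef on both of its probe sets. On the brighter probe set the PC9/gef arrays had log2 values of 12.65, 12.62 and 12.70, against 11.97, 11.88 and 12.00 on the PC9 arrays. All PC9/gef arrays were above all PC9 arrays. The means were 12.66 ± 0.0377 in PC9/gef and 11.95 ± 0.0613 in PC9 (SD, n = 3 each), a 1.63-fold rise (log2 change 0.70 with a standard error of 0.0396, limma, adjusted p over genes = 0.000634). On the dimmer probe set the values were 9.95, 9.91 and 9.89 in PC9/gef, against 9.29, 9.42 and 9.31 in PC9. Here too the lines were apart, with a log2 change of 0.58 (standard error 0.0414, adjusted p = 0.00214 from limma over probe sets). Since total RNA of whole cultures was measured, a change in the share of cells that express a gene and a change in RNA per cell cannot be told apart, for this gene and the others.
PLAUR, the urokinase receptor gene, was higher on 2 of its 3 probe sets. On the brightest the PC9/gef arrays had 10.27, 10.15 and 10.15 and the PC9 arrays had 9.59, 9.66 and 9.63. This was a 1.48-fold rise (log2 change 0.56 with a standard error of 0.0428, limma, adjusted p over genes = 0.00139). On the next brightest the PC9/gef arrays had 9.83, 9.82 and 9.85 and the PC9 arrays had 9.31, 9.38 and 9.28 (log2 change 0.51, adjusted p = 0.00135 from limma over probe sets). The lines did not overlap on either probe set. On the dimmest the PC9/gef arrays had 7.74, 7.80 and 7.70 and the PC9 arrays had 7.69, 7.88 and 7.86. The lines overlapped there, and the log2 change was -0.06 (95% confidence interval -0.233 to 0.108, adjusted p = 0.486 from limma over probe sets). Within each array, the brightest exceeded the dimmest by 2.44 ± 0.0902 in PC9/gef and by 1.82 ± 0.0699 in PC9 (SD, n = 3 each). Their changes therefore differed by 0.63 (two-sided exact permutation test, p = 0.1, the smallest that 3 arrays against 3 allow, and 0.117 adjusted over the 7 pairs of probe sets compared).
PLAT, the gene of tissue plasminogen activator, was lower in PC9/gef, the opposite direction to PLAU. On its single probe set the PC9/gef arrays had 9.41, 9.44 and 9.45, against 11.15, 11.06 and 11.12 on the PC9 arrays. All PC9/gef arrays were more than 1 log2 unit below the lowest PC9 array. The means were 9.43 ± 0.0186 in PC9/gef and 11.11 ± 0.0444 in PC9 (SD, n = 3 each), a 3.20-fold fall (log2 change -1.68 with a standard error of 0.0265, limma, adjusted p over genes = 4.64e-05). A larger change was found in 0.943% of the 25348 probe sets above background level in 1 or both lines, compared with 8.41% for the brighter probe set of PLAU. The change of PLAU exceeded that of PLAT by 2.38 on the log2 scale (two-sided exact permutation test on the difference within each array, p = 0.1, 0.117 adjusted over the 7 pairs). With 3 arrays against 3 no smaller p is possible, so this permutation test could not pass the threshold.
SERPINE2, the secreted inhibitor of thrombin and of both activators, was slightly higher. On the brighter of its probe sets the PC9/gef arrays had 12.51, 12.52 and 12.53, against 12.29, 12.25 and 12.33 on the PC9 arrays. The lines were apart, and the rise was 1.17-fold (log2 change 0.23 with a standard error of 0.0225, limma, adjusted p over genes = 0.00280). A larger change was found in 39.3% of the probe sets above background level. Its other probe set lay at background level on all arrays (2.39 in both lines).

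**Figure D3:**
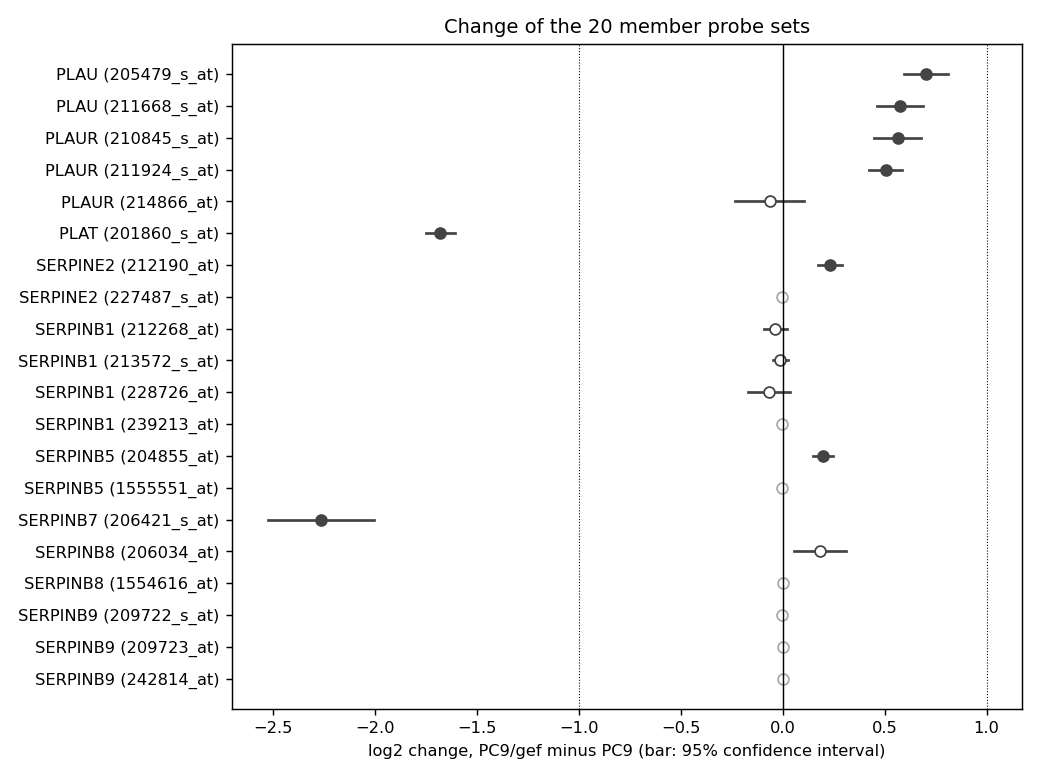
Difference in log2 value (PC9/gef minus PC9) for the 20 member probe sets, with bars for the 95% confidence interval and dotted lines at a 2-fold change. Filled points passed at an adjusted p under 0.05 over all probe sets, grey points are at background level in both lines, and PLAT and SERPINB7 alone lie beyond 2-fold.

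Of the clade B serpins, SERPINB7 had the largest change among the members. SERPINB7, also called megsin, is known from the epidermis, where its loss causes a palmoplantar keratosis. On its single probe set the PC9/gef arrays had 7.36, 7.09 and 7.40, against 9.60, 9.52 and 9.52 on the PC9 arrays. The lines were far apart, and PC9/gef replicate 2 was the lowest. The means were 7.28 ± 0.170 in PC9/gef and 9.54 ± 0.0485 in PC9 (SD, n = 3 each), a 4.80-fold fall (log2 change -2.26 with a standard error of 0.0972, limma, adjusted p over genes = 0.000334). A larger change was found in 0.442% of the probe sets above background level.
SERPINB5, or maspin, which is not an active protease inhibitor and was first described as a tumour suppressor of mammary epithelium, was slightly higher. On the probe set it was read from, the PC9/gef arrays had 11.43, 11.47 and 11.41, against 11.23, 11.24 and 11.24 on the PC9 arrays. The lines were apart by more than the spread within each, with a 1.15-fold rise (log2 change 0.20 with a standard error of 0.0182, limma, adjusted p over genes = 0.00230). A larger change was found in 44.0% of the probe sets above background level. Its second probe set was at background level.
SERPINB8, which can inhibit furin, had 7.62, 7.50 and 7.46 on the PC9/gef arrays of its brighter probe set, against 7.32, 7.36 and 7.35 on the PC9 arrays. The lines were apart, with a log2 change of 0.18 (standard error 0.0476). The adjusted p was 0.0492 from limma over genes and 0.0704 over probe sets, so that it passed over genes only. When 1 array was left out it passed over genes only without PC9/gef replicate 1 (adjusted p = 0.0267) and not in the other 5 fits, with adjusted p from 0.0552 to 0.146. Its other probe set was at background level.
SERPINB1, an inhibitor of neutrophil elastase, cathepsin G and proteinase 3, did not pass the test on any of its 4 probe sets. On the brightest the PC9/gef arrays had 11.69, 11.64 and 11.64 and the PC9 arrays had 11.68, 11.72 and 11.67. The arrays of the lines overlapped. The log2 change was -0.036, with a 95% confidence interval of -0.0932 to 0.0216 (adjusted p = 0.258 from limma over genes). The changes on the next brightest and the dimmer probe set were -0.012 and -0.065, with adjusted p = 0.540 and adjusted p = 0.284 from limma over probe sets, and the other probe set was at background level. SERPINB9, the inhibitor of granzyme B that lymphocytes use to survive their own granules, lay at background level on all 3 probe sets and all 6 arrays, with means of 2.25 in both lines on the brightest. The arrays therefore say nothing of a change in this gene.
In the gene order of chromosome 18, the measured clade B genes run SERPINB5, SERPINB12, SERPINB13, SERPINB4, SERPINB3, SERPINB11, SERPINB7, SERPINB10 and SERPINB8. Both end genes, SERPINB5 and SERPINB8, were higher in PC9/gef, SERPINB7 between them was lower, and most of the others lay at background level. SERPINB8 passed over genes only, and not in 5 of the 6 fits that left out 1 array. The change of SERPINB5 exceeded that of SERPINB7 by 2.46, and that of SERPINB8 exceeded it by 2.45 (two-sided exact permutation test on the difference within each array, p = 0.1 for each, 0.117 adjusted over the 7 pairs). No smaller p is possible with 3 arrays against 3, so the permutation test could not pass the threshold here. SERPINB12, SERPINB13, SERPINB4, SERPINB11 and SERPINB10 did not exceed background level in either line. SERPINB4 nevertheless had an adjusted p of 0.0363 from limma over genes, for a log2 change of -0.0018, and passed in none of the 6 fits that left out 1 array. SERPINB3, a squamous cell carcinoma antigen that inhibits cathepsins, had 3.74, 3.35 and 3.72 in PC9/gef, against 3.96, 4.44 and 4.37 in PC9, on a probe set of the _x_at type, which can also bind related transcripts. The lines were apart, but the log2 change of -0.65 did not pass (standard error 0.187, adjusted p = 0.0614 from limma over genes). It passed when PC9 replicate 1 was left out (adjusted p = 0.0494). On its other probe set the PC9/gef arrays had 3.47, 3.75 and 3.55 and the PC9 arrays had 3.77, 3.77 and 3.73, with a log2 change of -0.17 (adjusted p = 0.204 from limma over probe sets). Of the 6 other clade B genes measured, none was higher and 1 was lower, SERPINB4, where 14.4% of all genes were higher and 17.1% were lower. SERPINB6 was not analysed here. VPS4B, an endosomal ATPase gene on the SERPINB5 side of the cluster, was 1.77-fold higher (log2 change 0.82 with a standard error of 0.0294, limma, adjusted p over genes = 0.000217), at 10.93 ± 0.0277 in PC9/gef and 10.11 ± 0.0457 in PC9 (SD, n = 3 each).
SERPINB1 and SERPINB9 lie together on chromosome 6. Their measured neighbours GMDS, GMDS-DT, MYLK4, WRNIP1, SERPINB9P1, NQO2 and HTATSF1P2 did not pass the test, with log2 changes from -0.061 for MYLK4 to 0.20 for GMDS-DT. The neighbour LINC01600 had a log2 change of -0.0031 and an adjusted p of 0.0452 from limma over genes, at background level in both lines, and did not pass in 4 of the 6 fits that left out 1 array.

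**Figure D4:**
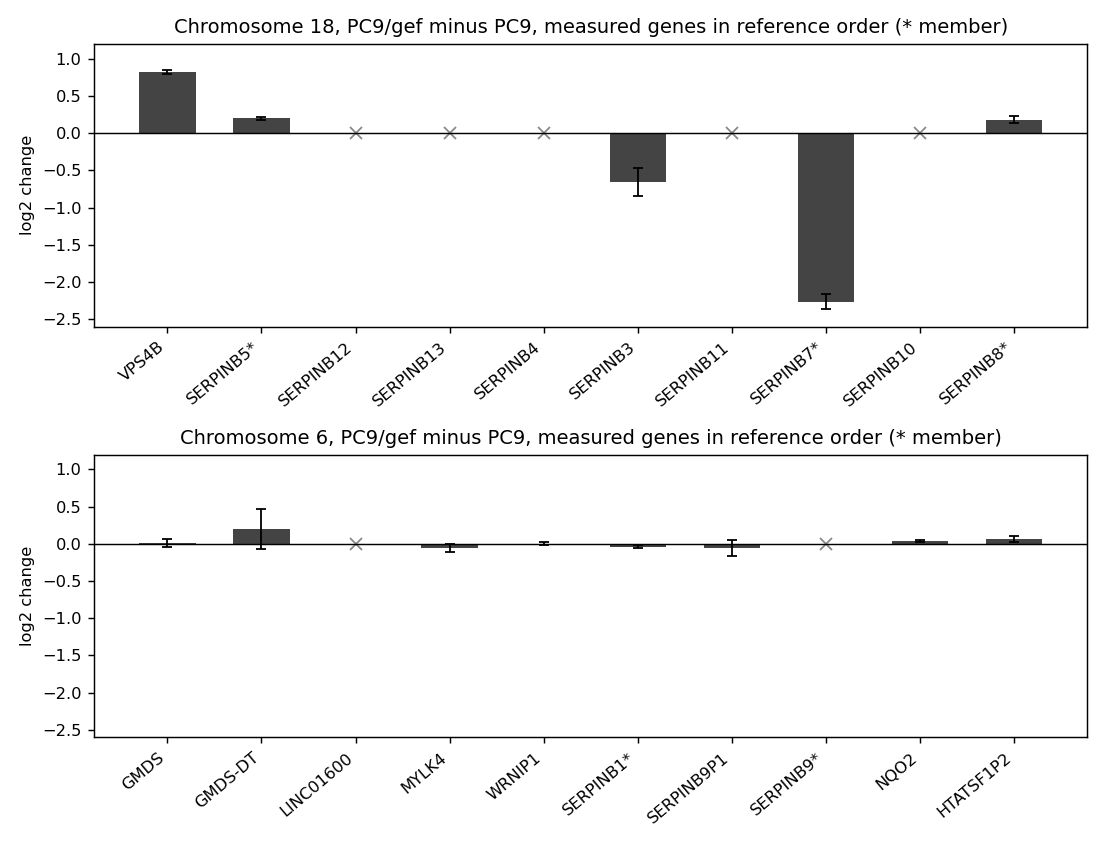
Difference in log2 value (PC9/gef minus PC9) for the measured genes of both clade B clusters in reference gene order, with bars for the change, whiskers for 1 standard error and crosses for genes at background level in both lines. On chromosome 18, SERPINB7 is lower while SERPINB5 and, passing over genes only, SERPINB8 are higher. On chromosome 6 no gene above background level passed the test.

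Other genes of the plasminogen system were taken from lists written with earlier results of these data known. Of 12 measured genes of plasminogen, its cell surface receptors and other plasmin regulators, 1 was higher, 3 were lower, 3 did not pass and 5 were at background level, where 14.4% of all genes were higher and 17.1% were lower. All of those called were among the 7 above background level. Of all genes above it, 23.8% were higher and 22.2% were lower. The median log2 change of this list was -0.00090, against -0.00065 over all genes. Among genes above background level the medians were -0.0013 for the list and -0.0098 for all genes. PLG, plasminogen itself, averaged 2.64 in PC9/gef and 2.65 in PC9, which is background level. TFPI2, a secreted inhibitor of plasmin and other trypsin-like proteases, had 9.12, 9.06 and 9.14 in PC9/gef, against 12.04, 12.06 and 11.96 in PC9. Its lines were far apart, with a 7.53-fold fall (log2 change -2.91 with a standard error of 0.0367, limma, adjusted p over genes = 3.16e-05). PLGRKT, a plasminogen receptor, had 9.74, 9.71 and 9.71 in PC9/gef, against 9.11, 9.13 and 9.17 in PC9, a log2 change of 0.58 (adjusted p = 0.000208). SERPINF2, the main plasma inhibitor of plasmin, was 1.19-fold lower (log2 change -0.26, adjusted p = 0.0203), and did not pass without PC9/gef replicate 1 (adjusted p = 0.0684), PC9/gef replicate 2 (0.0548) or PC9 replicate 3 (0.0553). S100A10, which with annexin A2 binds plasminogen and was named after its value was seen, was 1.17-fold lower (log2 change -0.23, adjusted p = 2.45e-05, and -0.49 with adjusted p = 0.0194 as the mean over its 2 probe sets), while ANXA2 and ENO1 had log2 changes of -0.0013 and 0.0059.
Genes of proteins that work with the urokinase receptor or clear its complexes formed another list. Of 14 measured, 7 were higher, 1 was lower, 2 did not pass and 4 were at background level, where 14.4% of all genes were higher and 17.1% were lower. All of those called were among the 10 above background level. Of all genes above it, 23.8% were higher and 22.2% were lower. The median log2 change of this list was 0.10, against -0.00065 over all genes. Among genes above background level the medians were 0.38 for the list and -0.0098 for all genes. ITGAV, an integrin chain that binds vitronectin, had 11.20, 11.22 and 11.27 in PC9/gef, against 10.66, 10.57 and 10.68 in PC9, a 1.51-fold rise (adjusted p = 0.000852 from limma over genes). ITGA5, a chain of the fibronectin receptor, had 6.09, 6.20 and 5.87 in PC9/gef, against 5.51, 5.46 and 5.49 in PC9 (log2 change 0.57, adjusted p = 0.0142), and did not pass in 4 of the 6 fits that left out 1 array, those without PC9/gef replicate 1, PC9 replicate 1, PC9 replicate 2 or PC9 replicate 3 (adjusted p from 0.0537 to 0.0596). ITGAM, a leukocyte integrin chain that binds the urokinase receptor, had 4.73, 5.52 and 4.54 in PC9/gef, against 3.78, 3.78 and 3.75 in PC9. Its log2 change of 1.16 (adjusted p = 0.0430) was not significant without any single array other than PC9/gef replicate 2, with adjusted p from 0.0542 to 0.126. It was 0.59 as the mean over its 2 probe sets (adjusted p = 0.0392), and without the _s_at probe set it was 0.018 and missed the threshold (adjusted p = 0.456). ITGB2, the partner chain of ITGAM, lay at background level.

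**Figure D5:**
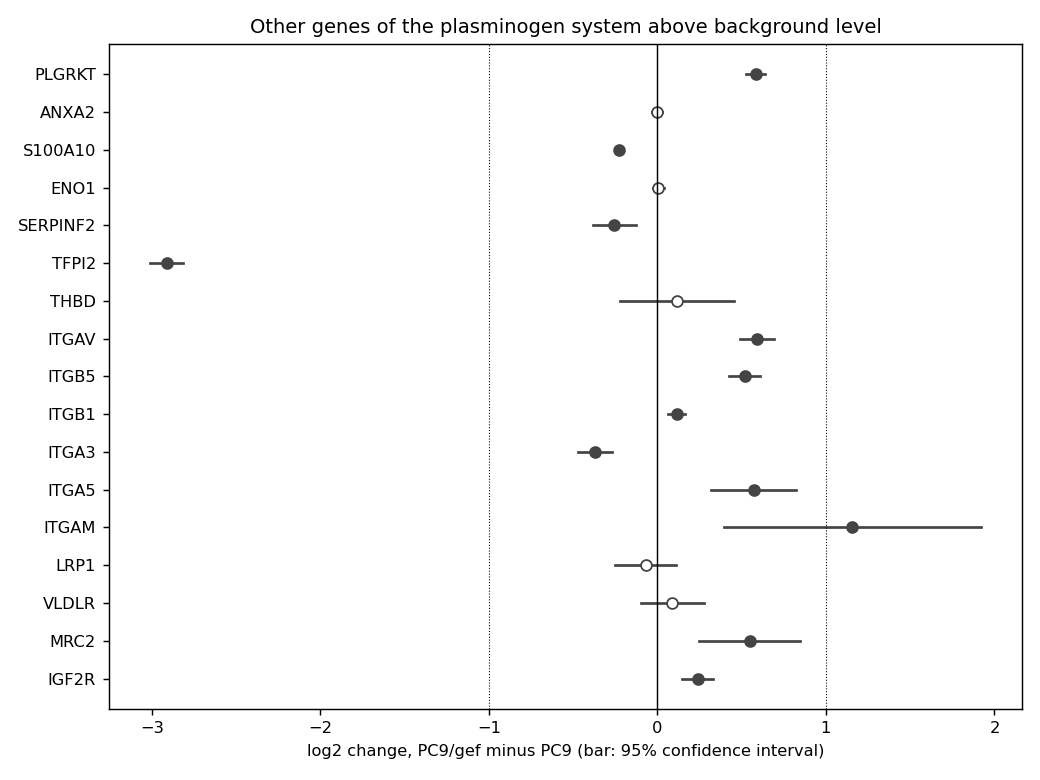
Difference in log2 value (PC9/gef minus PC9) for 17 other genes of the plasminogen system above background level, with bars for the 95% confidence interval, filled points for an adjusted p under 0.05 over all genes and dotted lines at a 2-fold change. TFPI2 has the largest change and is lower in PC9/gef, and ITGAM has the widest interval.

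Most genes on a list of proteases that clade B serpins or SERPINE2 are known to inhibit were not above background level. The list left out the members PLAU and PLAT, which SERPINE2 also blocks. Both lay well above background level, with means of 12.66 and 9.43 in PC9/gef and 11.95 and 11.11 in PC9. Of 17 measured, 11 lay at background level in both lines. Among them were ELANE, CTSG, PRTN3 and GZMB, which SERPINB1 or SERPINB9 can inhibit, and F2, the thrombin gene. Of all 17, 1 was higher, 4 were lower, CASP5 at background level among them, beside 14.4% higher and 17.1% lower over all genes. Among the 6 above background level 1 was higher and 3 were lower, beside 23.8% and 22.2% of all genes above it. The median log2 change of the list was -0.00049, against -0.00065 over all genes. Among genes above background level the medians were -0.083 for the list and -0.0098 for all genes. FURIN had a log2 change of -0.047 (adjusted p = 0.655 from limma over genes). CTSS, cathepsin S, had 5.87, 5.81 and 5.77 in PC9/gef, against 3.85, 3.90 and 4.38 in PC9, a 3.42-fold rise (log2 change 1.77, adjusted p = 0.00233). It did not pass without _x_at and _s_at probe sets (log2 change 0.85, adjusted p = 0.0769). CTSV, cathepsin V, had 12.02, 12.03 and 12.01 in PC9/gef, against 12.80, 12.79 and 12.80 in PC9, a 1.72-fold fall (adjusted p = 2.16e-05). CTSH, cathepsin H, was 1.46-fold lower (log2 change -0.54, adjusted p = 0.000132). CASP4, also above background level, was 1.09-fold lower (log2 change -0.12). Its adjusted p was 0.0342 from limma over genes and 0.0525 over probe sets. CTSL, cathepsin L, had a log2 change of 0.0046 (adjusted p = 0.934).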

How the data were processed

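Gene expression of PC9/gef and PC9 cells was measured on Affymetrix Human Genome U133 plus 2.0 arrays, 3 per line. The deposited log2 values were made by the authors, who corrected the background, normalized the arrays and gave 1 value per probe set, with GC-RMA and GeneSpring GX per the supplementary methods and RMA per the submitters' processing notes. They were used as deposited. All 6 arrays ran from 1.65 to 15.72 with a median of 2.55, the number of arrays limits the precision, and the raw scans were not used here. Arrays of the same line correlated at 0.9992 or more.
Of 54675 probe sets, 62 controls were left out, and 41091 had 1 gene in the annotation. Several genes were given for 1801 and no gene for 11721. Each gene was read from the probe set with the highest mean over the 6 arrays. The lines were compared with limma 3.58.1 under R 4.3.3 without its trend and robust options. P-values were adjusted by Benjamini-Hochberg once over all probe sets and once over genes, with a threshold of 0.05. P-values measure the spread between samples, which the labels call biological replicates. They do not cover the spread between separately derived resistant lines, since 1 such line was measured. Figures were drawn with matplotlib 3.10.9.
The members, gene lists and tests were chosen with earlier results of these data known. Named were the members, all other clade B serpins, neighbouring genes in the reference order (RefSeq, GRCh38.p14), and in each list up to 3 genes that passed with non-overlapping arrays, taken by size of change. Also named, outside this rule, were PLG, S100A10, ANXA2, ENO1, ITGB2, ELANE, CTSG, PRTN3, GZMB, F2, FURIN, CTSL, CASP4, CASP5 and SERPINI1. Other gene lists were markers of epithelial, lung, fibroblast, leukocyte and endothelial cells. The settings varied were the normalization, the moderation, removal of dim probe sets, a block for the replicate number, each array left out, the mean over a gene's probe sets, no _x_at or _s_at probe sets, and a minimum change of 1.5-fold.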

Additional observations from a re-analysis of the deposited data

How the results depend on the processing

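The other moderation and the filter on dim probe sets kept each count of members within 1.5 times. The mean over a gene's probe sets did so for the counts of genes. Quantile normalization and centring on the median did so too, but the arrays already shared their range and their median of 2.55. Centring could therefore change nothing and quantile normalization little, so these settings test little. Without _x_at and _s_at probe sets, 2 member probe sets and 2 member genes were higher, 0 of each were lower, and 0 genes were over 2-fold. PLAU, PLAT and SERPINB7 have only such probe sets, and SERPINB8 did not pass (adjusted p = 0.0545 from limma over genes). PLAUR was then read from its dimmest probe set, with a log2 change of -0.0625, and GMDS, GMDS-DT and NQO2 had -0.00049, -0.0057 and -0.023. GMDS was -0.025 as the mean over its probe sets. Against a minimum change of 1.5-fold, 0 member probe sets and 0 member genes were higher, while 2 were still lower.
When 1 array was left out, 6 to 7 member probe sets were higher and 2 were lower, 4 to 5 member genes were higher and 2 were lower, and 2 were over 2-fold. In these fits GMDS ran from -0.027 to 0.052, GMDS-DT from -0.022 to 0.36, WRNIP1 from -0.012 to 0.016 and SERPINB9P1 from -0.124 to 0.037.
Same-numbered samples did not deviate together (correlations of -0.025, 0.016 and 0.047), so the numbers were not taken as pairs. With the replicate number as a block, 4 member probe sets and 4 member genes were higher and 2 probe sets and 2 genes were lower, and SERPINB8 did not pass (adjusted p = 0.155), nor did SERPINF2, ITGAM and ITGA5, and the cause was not tested. SERPINB8 also did not pass as the mean over its probe sets (0.0526). SERPINB3 passed with trend and robust moderation (0.0344), among probe sets above background level (0.0206) and as the mean over its probe sets (0.0177). Signal over background limits what can be read of SERPINB9 and the other dim clade B genes.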

Other observations

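Among serpins outside clade B, SERPINH1 was lower and SERPING1 was higher in PC9/gef. Of 17 measured genes, 12 lay at background level, 1 was higher and 2 were lower in PC9/gef, beside 14.4% higher and 17.1% lower over all genes. Those called were among the 5 above background level, beside 23.8% higher and 22.2% lower of all genes above it. The median log2 change of the list was -0.00016, against -0.00065 over all genes. Among genes above background level the medians were 0.036 for the list and -0.0098 for all genes. SERPINH1, the collagen chaperone of the endoplasmic reticulum, had 9.18, 9.28 and 9.14 in PC9/gef, against 10.21, 10.13 and 10.04 in PC9, a 1.90-fold fall (adjusted p = 0.000999 from limma over genes). SERPING1, the inhibitor of complement C1 proteases, had 3.89, 4.02 and 3.81 in PC9/gef, against 2.99, 3.06 and 3.19 in PC9. This was a 1.77-fold rise (adjusted p = 0.00294 from limma over genes), with PC9 values close to the background level of 2.65. Against a minimum change of 1.5-fold, neither SERPINH1 nor SERPING1 passed (adjusted p = 0.0699 and 0.417 from limma over genes). SERPINF2, an inhibitor of plasmin, is the other lower gene. SERPINI1, neuroserpin, which inhibits tissue plasminogen activator in the nervous system, had a log2 change of 0.036 (adjusted p = 0.813 from limma over genes), at 6.91 ± 0.195 in PC9/gef and 6.88 ± 0.0790 in PC9 (SD, n = 3 each).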
